A study of Rattus norvegicus with 9 samples.

Results

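The rat adrenal medulla after 6 daily sessions of immobilization was compared with that of unstressed rats. The comparison uses 6 of the 9 arrays of the series, chosen by their titles: 3 of rats immobilized for 2 h daily on 6 days (IMO_6x replicates 1, 2 and 3) and 3 of rats that were never stressed (control replicates 1, 2 and 3). The other 3 arrays, of rats immobilized in 1 session (IMO_1x), entered the shared estimate of the spread. They also entered the level filter, the choice of probe set for each gene and the normalization across arrays. All were adult rats of 280 to 320 g, and the medullae of the stressed rats were dissected after the last session. The organism is given as Rattus norvegicus, other label fields name mouse and brain, and no strain, sex or number of animals per array was used here. Whether each array holds its own animal is not in the labels. The p-values therefore rest on the spread among arrays, which may be technical.

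The adrenal medulla is the neuroendocrine core of the adrenal gland. Its chromaffin cells are driven by the splanchnic nerve through acetylcholine and the peptide PACAP, and release adrenaline, noradrenaline, granins and neuropeptides from dense-core vesicles. Nerve input raises calcium and cAMP in these cells, which is known to induce a first wave of transcription factor genes and then genes of peptides and of amine synthesis. Around the medulla lies the cortex, which makes steroid hormones from cholesterol under the pituitary hormone ACTH, and rats under immobilization stress secrete both groups of hormones.

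The IMO_6x arrays stood apart from the others before any gene was considered. The actin 3′/5′ ratio, which rises when labelled RNA is shortened, reached 231 in IMO_6x replicate 1, 6.11 in replicate 2 and 8.87 in replicate 3, against a control range of 1.45 to 2.15. The GAPDH ratio was 5.02, 1.79 and 1.87, against 1.10 to 1.41. Spiked-in control transcripts had a mean log2 level of 17.52, 14.04 and 14.41, against 12.04 to 13.08. Each of these 3 measures was higher in all 3 IMO_6x arrays than in any control array (exact permutation p = 0.1, two-sided, the smallest that 3 against 3 arrays allow). The hexokinase 3′/5′ ratio did not follow them: after 6 sessions it stood at 0.197 in replicate 1, 2.81 in replicate 2 and 4.35 in replicate 3, against 1.72 to 4.18 in control, so that replicate 1 was below every control array and replicate 2 within their range. Median intensities were 1583, 593 and 675 after 6 sessions and 910.5 to 1053 in control, on arrays that had been scaled to the same trimmed mean. RNA quality and 6 sessions therefore cannot be told apart in this design, and the part of RNA quality in the results below was not tested.

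**Figure D1:**
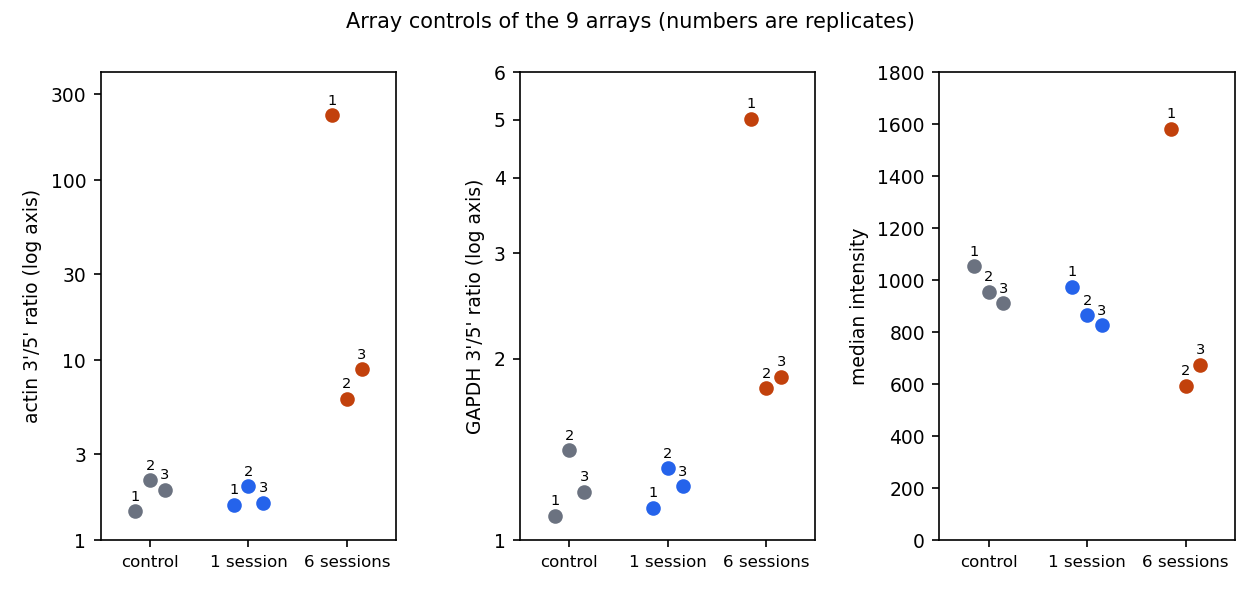
Array controls of the 9 arrays by group, with the replicate number above each point: the actin and GAPDH 3′/5′ ratios on log axes and the median intensity on a linear axis. IMO_6x replicate 1 has an actin ratio of 231 and replicates 2 and 3 have 6.11 and 8.87, all above the control range of 1.45 to 2.15.

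For this reason every comparison was read in 4 ways: with all arrays, without IMO_6x replicate 1, after quantile normalization (which gives every array the same distribution of intensities), and with both changes. Levels were taken as log2(intensity + 16), and differences are IMO_6x minus control on that scale, with the standard error (SE) of the limma fit. The probe set of highest mean level over all 9 arrays stood for each gene. The threshold was an adjusted p (Benjamini-Hochberg) of 0.05, below which a gene is said to have passed. Of 11288 genes tested, 1019 rose (9.03%) and 1566 fell (13.9%) with all arrays. Without IMO_6x replicate 1 the counts were 1956 (17.3%) and 3282 (29.1%). After quantile normalization they were 960 (8.5%) and 864 (7.65%), and with both changes 1761 (15.6%) and 1943 (17.2%). Centring arrays on their medians instead, 448 rose and 213 fell. The share of falls among the changes thus moved with the scaling. The median difference of all genes was -0.23 with all arrays, -0.22 without replicate 1, -0.15 after quantile normalization and -0.03 with both changes, and 0.38 with median centring without replicate 1. In all 4 readings 792 genes passed as higher (7.02%) and 716 as lower (6.34%), of which 465 and 436 differed at least 2-fold in each reading. The groups did not overlap for 4686 genes (41.5%).

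How much the readings differed went with the level of the genes. When genes were split into 10 bins of equal size by mean level in the control arrays, 18.6% of the brightest bin passed as higher with all arrays but 5.23% in all 4 readings. The median difference in that bin was 0.07 with all arrays and 0.44 without replicate 1, but -0.34 after quantile normalization and -0.15 with both changes. In the bin below it, falls made up 18.2% with all arrays and 14.7% in all 4 readings, and in the 8th bin 23.4% and 12.0%. In the dimmest bin 8.86% passed as higher and 0.354% as lower with all arrays. The level filter used the mean over all 9 arrays, so a gene dim in control could enter this bin by being high after stress. That favours rises in the bin, and its shares cannot be read as a result. Control levels enter both the bins and the differences, so bins and differences are not independent.

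**Figure D2:**
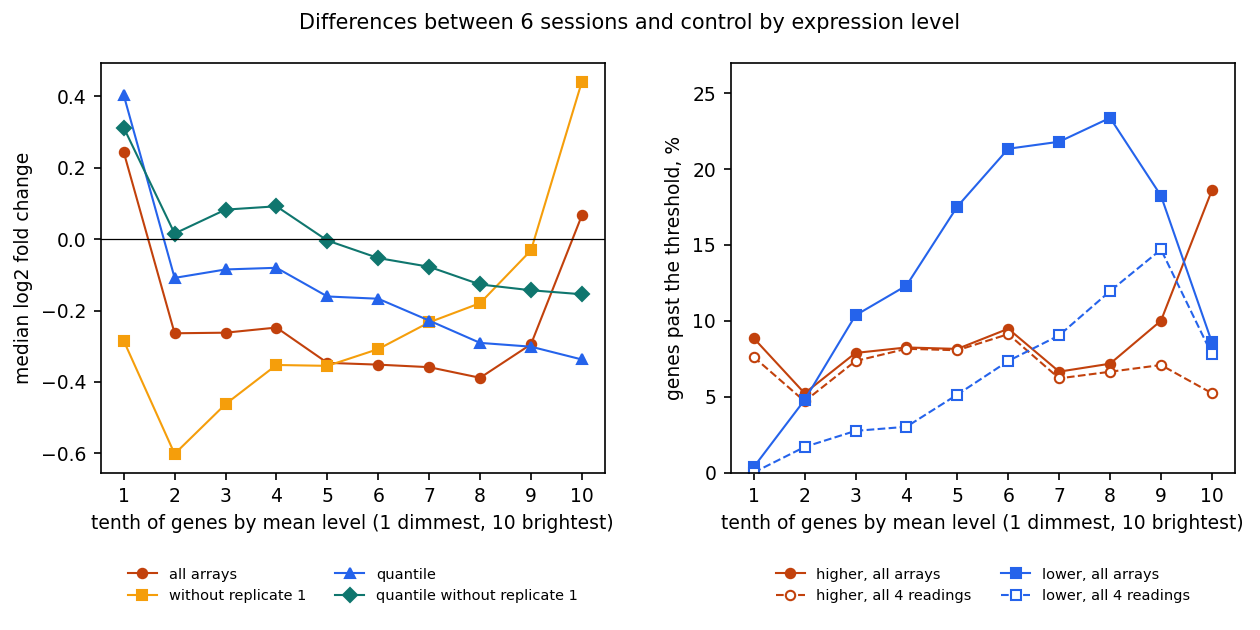
Genes in 10 bins of mean level in the control arrays, from dimmest (1) to brightest (10). Left, the median log2 fold change, IMO_6x minus control, in the 4 readings, and right, the percentage of genes past the threshold with all arrays (filled) and in all 4 readings (open). In the brightest bin the percentage higher drops from 18.6 to 5.23.

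Probe sets of 1 gene lie at different places along its transcript, so their agreement is a check within the array. Of 3249 genes with 2 or more tested probe sets, 52 rose (1.6%) and 134 fell (4.12%) with every probe set past the threshold, and 44 and 91 of these also had their representative probe set past it in all 4 readings. Among the 376 such genes that rose by their brightest probe set, another probe set rose in 22.6% and one fell in 25 genes. Among the 508 that fell, another fell in 36.2% and one rose in 9 genes. Across the 3249 genes the differences of the 2 brightest probe sets correlated at 0.38 with all arrays and 0.48 without replicate 1, with genes not being independent replicates. The genes below are given by their brightest probe set, and other probe sets that did not pass, or a mean over probe sets that did not, are named with them. 

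Neuropeptides were the list with the largest share of members higher after 6 sessions, with all arrays. Of 20 tested genes of neuropeptides and granins, 16 rose (80%) and 1 fell (5%), against 9.03% and 13.9% of all genes. In all 4 readings 14 of the rises passed. The median difference of the 20 genes was 2.14, and 1.60, 1.94 and 1.54 in the quantile, replicate-left-out and combined readings. The remaining 6 of 26 list members were below the level filter, among them Tac1 and Sst. In bulk tissue a higher level of a peptide transcript and a larger share of the cells that make it cannot be told apart.

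Nmu encodes neuromedin U, a peptide that acts on smooth muscle and on feeding. Its intensities were 351, 248 and 67.7 in control and 10738, 24164 and 20130.0 after 6 sessions. All 3 stressed arrays lay far above the control arrays, a difference of 6.43 ± 0.53 (SE, adjusted p = 0.000162, 6.39 to 6.78 over the 4 readings). Nts, which encodes neurotensin, went from 678, 407 and 92.9 to 14838, 29338 and 20455, a difference of 6.03 ± 0.57 (5.96 to 6.27). For both genes the control arrays spread over several-fold, and the lowest stressed array was still above the highest of them by more than that spread. Calca, the gene of calcitonin and of the vasodilator CGRP, had intensities of 222, 117 and 114 in control and 3990.1, 5382 and 3063 after 6 sessions. Its difference was 4.66 ± 0.35 (4.66 to 4.97), and its other 2 probe sets rose by 2.46 and 4.41. Uts2, which encodes the vasoconstrictor urotensin II, stood near the bottom of the scale in control at 116, 90.4 and 92.0 and at 3822, 1602 and 3563 after 6 sessions (difference 4.61 ± 0.42). Ucn2 encodes urocortin 2, a ligand of the type 2 receptor of corticotropin-releasing factor, and rose from 347, 463 and 340.4 to 7070.1, 7428 and 3432 (difference 3.84 ± 0.33). Its second probe set rose by 2.24. None of these groups overlapped.

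Peptides and granins known to be stored with catecholamines also rose. Vgf, a granin-like secretory protein, had intensities of 3488, 1550.3 and 636 in control and 24848, 42325 and 30629 after 6 sessions (difference 4.38 ± 0.50, adjusted p = 0.000757). Npy, neuropeptide Y, went from 25489.6, 30942 and 20911 to 66780.0, 147468 and 143523, a difference of 2.14 ± 0.35 with all arrays and 1.24 after quantile normalization (adjusted p = 0.00335 and 0.0273). In both genes all stressed arrays were above all control arrays. Penk, the proenkephalin gene, was uneven in control, at 7747, 1190.2 and 7891, against 14642, 45064 and 29224 after 6 sessions (difference 2.68 ± 0.70). Vip and Stc1, the stanniocalcin gene, rose by 1.67 ± 0.36 and 2.52 ± 0.32. Gal, the galanin gene, had 1798, 937 and 891 in control and 1679.7, 3130.3 and 2729 after 6 sessions, so that replicate 1 overlapped the control range. Its difference was 1.07 ± 0.33 (adjusted p = 0.0446), and it did not pass after quantile normalization (1.01, adjusted p = 0.162). The granin Chgb differed by 2.63 ± 0.56 with all arrays but by 0.52 after quantile normalization, where it still passed. Chga differed by 2.14 ± 0.54 and by 0.27 after quantile normalization (adjusted p = 0.253). Scg2 had a difference of -0.01 ± 0.63 with all arrays. Its intensities were 56702, 43619 and 38315 in control and 13444, 82834 and 83993 after 6 sessions, so replicate 1 was below the control arrays and replicates 2 and 3 were above them, and it passed as higher without replicate 1 (0.87, adjusted p = 0.0172). Adm, adrenomedullin, was the 1 member that fell, by 1.33 ± 0.42 on the log2 scale, and it did not pass after quantile normalization (adjusted p = 0.108). Npy, Penk, Vip, Gal and Adm lost their call under median centring. The call was also lost when 1 array was left out, for Adm without IMO_1x replicates 1, 2 and 3 and IMO_6x replicate 3 and control replicates 1, 2 and 3 (adjusted p = 0.0571 to 0.144), Chga without control replicates 2 and 3 (adjusted p = 0.0786 to 0.0846), and Chgb without control replicate 3 (adjusted p = 0.0539). It also ended that of Gal without IMO_1x replicates 1, 2 and 3 and IMO_6x replicates 2 and 3 and control replicates 2 and 3 (adjusted p = 0.0657 to 0.157), Penk without IMO_6x replicates 2 and 3 (adjusted p = 0.0562 to 0.0635), and Vip without control replicate 3 (adjusted p = 0.0506).

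**Figure D3:**
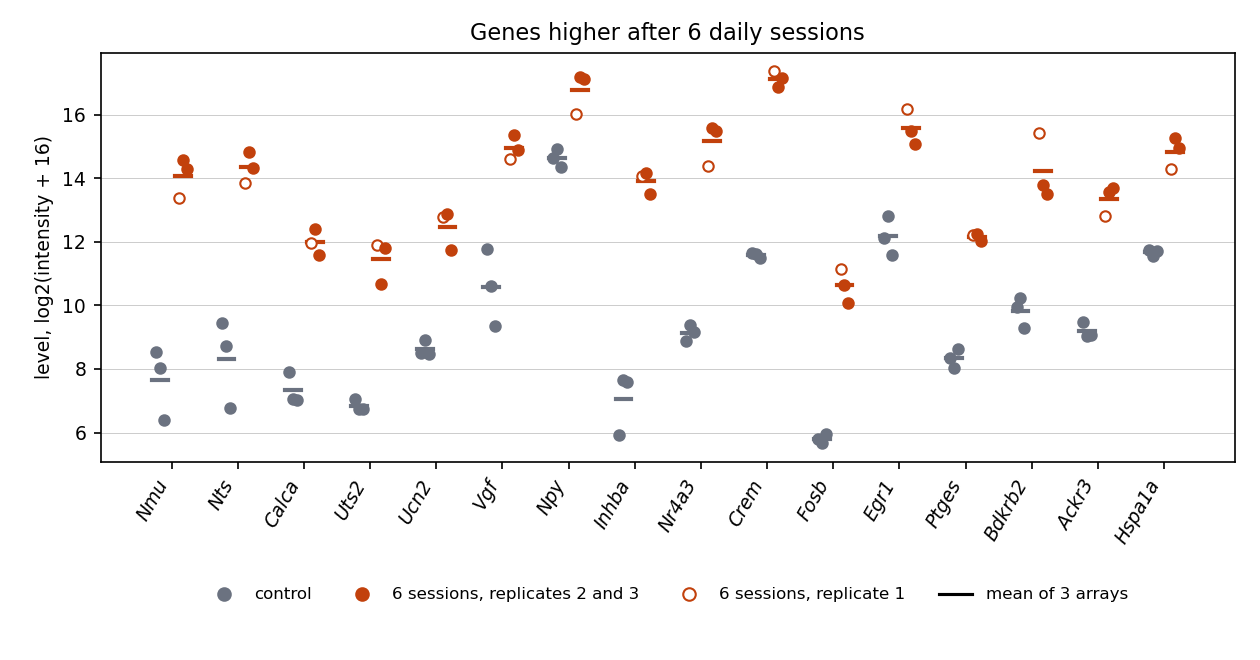
Levels as log2(intensity + 16) of 16 genes that rose, one point per array: control in grey, IMO_6x replicates 2 and 3 filled and replicate 1 open, with a line at the mean of 3 arrays. In each gene the 3 IMO_6x points lie above the 3 control points, by a mean of 2.14 for Npy up to 6.86 for Inhba. Lack of overlap was a condition for genes chosen by size of change, and 41.5% of all genes did not overlap.

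By its brightest probe set, the activin gene Inhba had the largest difference among the genes named. Inhba encodes the subunit of activin A, a secreted factor of the TGF-beta family. Its intensities were 45.0, 184 and 175 in control and 17075, 18393 and 11528 after 6 sessions. All control arrays were near the bottom of the scale and all stressed arrays far above them, a difference of 6.86 ± 0.44 (adjusted p = 4.07e-05, 6.78 to 6.86 over the 4 readings), and its second probe set rose by 3.36. With the mean of its probe sets the difference was 5.11, below that of Nmu, which has 1 probe set (6.43). Genes that bind or oppose activin rose with smaller differences. Inha, whose product joins the beta subunits to form the antagonist inhibin, rose from 3435, 3433 and 2502 to 5881, 7499 and 7839 (difference 1.18 ± 0.29). Fst, which encodes the activin-binding follistatin, rose by 1.02 ± 0.29 with its brightest probe set and by 3.42 with the other, the latter in all 4 readings. Inhbb rose by 1.12 ± 0.35, Smad7, an inhibitory Smad, by 0.99 ± 0.27, and Id1, a target of BMP signalling, by 1.89 ± 0.23. Among the falls were 2 genes of the receiving side. Smad3, a signalling Smad of activin and TGF-beta, fell from 2947, 2825 and 3244 to 223, 779 and 745, a difference of -2.52 ± 0.43 with an adjusted p of 0.0585 after quantile normalization. Tgfbr3, the co-receptor betaglycan that binds inhibin and TGF-beta, had intensities of 6652, 2380.0 and 5643 in control and 1879, 264 and 523 after 6 sessions. It fell by 2.77 ± 0.76 on the log2 scale, and its second probe set differed by -2.00. In the whole list 7 of 28 tested members rose (25%) and 4 fell (14.3%), against 9.03% and 13.9% of all genes, so the share of falls was near that of all genes. In all 4 readings 5 rose and 1 fell, where the shares of all genes were 7.02% and 6.34%. The median difference of the list was 0.43. Fst and Inhbb did not pass after quantile normalization (adjusted p = 0.163 and 0.0502). Median centring of the arrays ended the call of Inha, Fst, Inhbb, Smad7 and Smad3. With 1 array left out, the threshold was missed by Fst without IMO_1x replicates 2 and 3 and IMO_6x replicates 2 and 3 and control replicates 1 and 3 (adjusted p = 0.0583 to 0.12), Inha without IMO_6x replicate 3 and control replicate 3 (adjusted p = 0.052 to 0.0804), and Inhbb without IMO_1x replicates 1, 2 and 3 and IMO_6x replicates 2 and 3 and control replicates 2 and 3 (adjusted p = 0.0528 to 0.16). It also ended that of Smad7 without IMO_1x replicates 2 and 3 and IMO_6x replicate 2 and control replicates 1 and 3 (adjusted p = 0.053 to 0.101), and Tgfbr3 without IMO_6x replicates 2 and 3 and control replicates 1 and 3 (adjusted p = 0.0691 to 0.0993). A further probe set missed the threshold for Smad7 (1.78).

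Early induced transcription factors, whose genes respond to calcium and cAMP without new protein, were higher after the 6th session. Of 32 tested members 17 rose (53.1%) and 2 fell (6.25%), against 9.03% and 13.9% of all genes. In all 4 readings 16 rises passed, and the list's median difference was 1.03 (0.84 to 1.37 over the readings). Crem encodes activators and the repressor ICER of cAMP-responsive genes, and all 6 of its probe sets rose. Its brightest one had intensities of 3169, 3134 and 2841 in control and 168397, 120262 and 144744 after 6 sessions, a difference of 5.55 ± 0.29 (adjusted p = 1.73e-05). The other 5 rose by 1.65 to 4.69. Nr4a3, an orphan nuclear receptor, went from 460.0, 645 and 556 to 21465, 49421 and 46125, a difference of 6.02 ± 0.33, and its other 2 probe sets rose by 1.67 and 5.78. Its relatives Nr4a1 and Nr4a2 rose by 2.70 ± 0.41 and 2.57 ± 0.27. All stressed arrays of the 3 receptors lay above all control arrays. Fosb, which pairs with Jun proteins to form AP-1, had 39.3, 34.5 and 45.4 in control and 2271, 1580.2 and 1068 after 6 sessions (difference 4.83 ± 0.35). Fos rose by 2.76 ± 0.39, Egr1, a zinc finger factor, by 3.41 ± 0.35, Atf3 by 2.56 ± 0.41, the small Maf protein Maff by 3.89 ± 0.29 and Nfil3, a repressor of the bZIP class, by 4.10 ± 0.24. Arc, an activity-regulated gene of synapses, went the other way, from 1215, 809.6 and 1077 to 500.0, 344 and 459. It fell by 1.22 ± 0.30 on the log2 scale and did not pass after quantile normalization (adjusted p = 0.0844). Genes that limit the same signals rose with them. Of 24 tested members of the MAPK and cAMP feedback list 11 rose (45.8%) and 2 fell (8.33%), 8 and 1 in all 4 readings. Pde10a and Pde4d, phosphodiesterases that degrade cyclic nucleotides, rose by 3.29 ± 0.36 and 3.19 ± 0.34. For Pde4d the intensities were 247, 419 and 189 in control and 2749, 2909 and 2189 after 6 sessions, and its second probe set had a difference of -0.14. Sik1, a kinase induced by cAMP that restrains CREB target genes, rose by 1.87 ± 0.25, the small GTPase Gem by 1.68 ± 0.25 and the phosphatase Dusp1 by 1.71 ± 0.45. After median centring, Arc, Gem and Dusp1 no longer passed. Omission of 1 array ended the call of Arc without control replicates 1 and 3 (adjusted p = 0.0695 to 0.0743), and Dusp1 without IMO_6x replicates 2 and 3 and control replicates 1, 2 and 3 (adjusted p = 0.0514 to 0.0863). Another probe set did not pass for Pde10a (0.76), Sik1 (1.01) and Dusp1 (0.33). The mean of the probe sets did not pass for Pde10a (2.02, adjusted p = 0.0894) and Dusp1 (1.02, adjusted p = 0.207).

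Promoters are shown for 5 genes that rose in all 4 readings and whose window, from 250 bases before to 50 after the transcript start, holds a site of the factor families above: Vgf, Slc18a2 and Maff with the cAMP-response element TGACGTCA, and Nmu and Nts with the AP-1 site TGACTCA, read on the opposite strand as TGAGTCA. The 5 were chosen after their values were seen. Sequences are those of RefSeq on GRCr8, 5′ to 3′ on the gene's strand, with the motif in capitals: Vgf on the minus strand of chr12:25276971-25277270, Slc18a2 on the plus strand of chr1:268399771-268400070, Maff on the plus strand of chr7:112792537-112792836, Nmu on the plus strand of chr14:32198693-32198992 and Nts on the minus strand of chr7:39460839-39461138.
Vgf: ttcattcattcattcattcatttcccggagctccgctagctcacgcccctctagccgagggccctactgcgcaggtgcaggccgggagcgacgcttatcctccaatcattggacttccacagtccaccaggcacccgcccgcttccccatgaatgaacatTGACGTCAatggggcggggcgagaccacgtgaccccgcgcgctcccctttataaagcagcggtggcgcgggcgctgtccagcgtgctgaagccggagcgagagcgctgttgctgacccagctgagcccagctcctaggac
Slc18a2: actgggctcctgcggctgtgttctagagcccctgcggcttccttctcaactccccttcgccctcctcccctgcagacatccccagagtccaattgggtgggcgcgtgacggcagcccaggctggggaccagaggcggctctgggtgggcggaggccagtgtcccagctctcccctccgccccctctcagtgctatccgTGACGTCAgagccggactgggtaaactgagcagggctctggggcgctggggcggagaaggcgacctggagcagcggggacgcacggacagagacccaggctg
Maff: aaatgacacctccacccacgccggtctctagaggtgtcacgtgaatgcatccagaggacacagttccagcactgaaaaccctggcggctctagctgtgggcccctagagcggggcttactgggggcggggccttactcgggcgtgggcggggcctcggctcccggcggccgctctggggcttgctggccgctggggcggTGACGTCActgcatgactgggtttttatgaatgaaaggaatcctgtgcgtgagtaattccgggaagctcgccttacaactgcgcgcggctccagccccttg
Nmu: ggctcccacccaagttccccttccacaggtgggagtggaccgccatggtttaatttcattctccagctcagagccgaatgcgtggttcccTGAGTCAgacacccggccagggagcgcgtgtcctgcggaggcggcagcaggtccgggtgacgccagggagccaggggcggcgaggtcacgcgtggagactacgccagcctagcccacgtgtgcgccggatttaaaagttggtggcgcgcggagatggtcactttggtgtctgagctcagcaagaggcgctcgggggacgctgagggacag
Nts: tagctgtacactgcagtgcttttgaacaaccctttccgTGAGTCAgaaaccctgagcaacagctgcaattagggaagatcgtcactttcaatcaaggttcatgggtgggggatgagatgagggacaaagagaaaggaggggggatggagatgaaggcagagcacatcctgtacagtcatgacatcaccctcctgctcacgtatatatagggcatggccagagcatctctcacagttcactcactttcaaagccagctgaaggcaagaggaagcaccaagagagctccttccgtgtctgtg
The motif begins 90, 52 and 51 bases before the start in Vgf, Slc18a2 and Maff, and 160 and 212 bases before it in Nmu and Nts. Both motifs were searched on both strands, and neither contains the other. Among 9378 tested genes with a promoter in the table, 3.36% held the cAMP-response element and 3.86% the AP-1 site. Of 672 genes higher in all 4 readings, 5.06% and 5.95% held them, and of 594 genes lower in all 4 readings, 2.69% and 2.69%. Over all 33469 promoters of the table the shares were 1.83% and 4.63%. A match describes the letters of the window and not a bound site. 

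Genes of amine synthesis and storage differed in how they held over the readings. Th, tyrosine hydroxylase, which sets the pace of catecholamine synthesis, had intensities of 79386, 54049 and 55633 in control and 79575, 193597 and 224786 after 6 sessions. Replicate 1 stood just above the highest control array and replicates 2 and 3 far above it. The difference was 1.29 ± 0.48 (adjusted p = 0.0803), 1.75 without replicate 1 (adjusted p = 0.00262), 0.01 after quantile normalization and 0.26 with both changes (adjusted p = 0.0644). Dbh, which makes noradrenaline, differed by 2.17 ± 0.47 but by 0.30 after quantile normalization (adjusted p = 0.175), and Pnmt, which makes adrenaline, by 1.62 ± 0.34 and 0.45 (adjusted p = 0.153). A further 2 members kept their rise in all 4 readings. Gch1, which makes the cofactor of Th, went from 13002, 7125 and 7162 to 16368, 61949.6 and 43515 (difference 2.02 ± 0.46). Slc18a2, the vesicular monoamine transporter VMAT2, went from 5069.6, 3301 and 2314 to 5773, 33629 and 24227, a difference of 2.30 ± 0.58, and one of its other probe sets rose by 3.83. In both genes the 3 stressed arrays were above the controls, with replicate 1 the lowest of them. Slc18a1, the transporter VMAT1 that is typical of adrenaline cells, differed by -1.12 ± 0.79 with all arrays and by 0.04 without replicate 1, and did not pass in either. Maob, which breaks amines down, fell by 1.50 ± 0.27 on the log2 scale and did not pass after quantile normalization (adjusted p = 0.0775). In the list of 14 genes 4 rose (28.6%) and 1 fell (7.14%), against 9.03% and 13.9% of all genes. The list had 2 rises in all 4 readings and a median of 0.40 that turned to -0.23 after quantile normalization. Pnmt, Gch1, Slc18a2 and Maob lost their call under median centring. Leaving out 1 array at a time ended the call of Dbh without control replicate 3 (adjusted p = 0.0584), Gch1 without control replicates 2 and 3 (adjusted p = 0.0554 to 0.06), and Pnmt without control replicate 3 (adjusted p = 0.056). It also ended that of Slc18a2 without IMO_6x replicates 2 and 3 and control replicates 2 and 3 (adjusted p = 0.0509 to 0.0831). Other probe sets that did not pass were those of Slc18a2 (0.98).

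Some enzymes that process prohormones rose, while genes of the release machinery changed in both directions. Of 11 processing genes 4 rose (36.4%, against 9.03% of all genes), 3 of them in all 4 readings. These 3 were Pcsk2, a prohormone convertase (1.68 ± 0.31), Cpe, the carboxypeptidase that trims peptide hormones (1.77 ± 0.27), and Scg5, the chaperone of Pcsk2 (1.30 ± 0.27). For Pcsk2 the intensities were 1542, 1747 and 1008 in control and 3050.2, 6326 and 4702 after 6 sessions, without overlap. After quantile normalization Cpe still passed with a difference of 0.58. Of 30 tested exocytosis genes 3 rose and 4 fell, with 3 each way in all 4 readings, and these counts are near the shares of all genes that rose (9.03%) and fell (13.9%). Syt4, a synaptotagmin that responds to depolarisation, rose by 1.77 ± 0.28 with its brightest probe set, while the other differed by -0.68, and the vesicle protein Sv2a rose by 1.80 ± 0.36. Vamp1, a vesicle SNARE, fell from 6627, 8715 and 6621 to 1848, 2716 and 1832, a difference of -1.78 ± 0.26, and its other 2 probe sets differed by -2.54 and -1.59. Syt11 fell by 2.45 ± 0.49 on the log2 scale. Snap25, a SNARE of the plasma membrane, had a difference of -0.38 ± 0.60, with IMO_6x replicate 1 below the control range and replicates 2 and 3 above it. Median centring of the arrays ended the call of Pcsk2, Scg5 and Vamp1. A mean over probe sets ended the call of Syt4 (0.55, adjusted p = 0.359).

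Receptors through which nerves and hormones reach the medulla changed in both directions. Fast transmission in chromaffin cells runs through nicotinic receptors made mainly of the alpha 3 and beta 4 subunits. Chrnb4, the beta 4 subunit, had intensities of 3924, 3658 and 2557 in control and 645, 1047 and 712 after 6 sessions. It fell by 2.06 ± 0.28 on the log2 scale (adjusted p = 0.00143, -2.06 to -1.49 over the 4 readings). Chrna7, the alpha 7 subunit, fell from 2137, 1019 and 1151 to 299.7, 180.4 and 153, a difference of -2.65 ± 0.49. In neither did the groups overlap. Chrna3 was not called, with 8870.1, 9637 and 6207 in control, 4904, 9864 and 8589.7 after 6 sessions and a difference of -0.12 ± 0.28 (adjusted p = 0.795). Cnr1, the cannabinoid receptor CB1, fell from 11615, 8130.0 and 10489.8 to 175, 1682 and 1805. Replicate 1 was the lowest array, and without it the difference was -2.51 in place of -3.57 (adjusted p = 5.89e-05 and 0.00854). Gria3, a subunit of AMPA glutamate receptors, fell by 2.17 ± 0.38 on the log2 scale, and its second probe set differed by -1.40. Other receptors rose. Bdkrb2, the bradykinin B2 receptor, went from 973, 1182 and 608 to 44100.5, 13996 and 11588, a difference of 4.41 ± 0.48 (3.82 to 4.41 over the 4 readings), and its other 2 probe sets differed by 0.39 and 2.81. Adcyap1r1, the PACAP receptor PAC1, rose by 0.90 ± 0.23 with its brightest probe set, and its other 2, which did not pass, differed by -0.89 and 0.73. In the list of receptors 3 of 24 rose and 3 fell, all 6 in all 4 readings. With all arrays these shares, 12.5% and 12.5%, were of the same order as the 9.03% and 13.9% of all genes.

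Among ion channels, Kcnk5, a background potassium channel, rose from 127, 101 and 107 to 4244, 1774 and 1823, a difference of 4.25 ± 0.44 (adjusted p = 0.000483). Kcns3, a modifier of delayed rectifiers, rose by 2.03 ± 0.43, and Kcnma1, the calcium-activated BK channel, by 1.18 ± 0.26. These were 3 of 45 tested potassium channel genes that rose, each in all 4 readings, and 3 others fell, none of which passed in all 4, and both shares (6.67% and 6.67%) were below those of all genes. Of 19 voltage-gated calcium and sodium channel genes 0 rose and 3 fell (15.8%), against 9.03% and 13.9% of all genes. The share of falls was thus near that of all genes. Cacng3, a gamma subunit, fell by 1.81 ± 0.33 on the log2 scale in all 4 readings. Cacna1d, an L-type channel, had a difference of -1.18 ± 0.32 and did not pass after quantile normalization (adjusted p = 0.203). After median centring, Cnr1, Gria3, Adcyap1r1, Kcnma1 and Cacna1d no longer passed. With 1 array left out, the threshold was missed by Adcyap1r1 without IMO_6x replicate 2 and control replicates 1 and 3 (adjusted p = 0.0594 to 0.0907), Cacna1d without IMO_1x replicate 2 and control replicates 1, 2 and 3 (adjusted p = 0.0509 to 0.0922), and Kcnma1 without control replicate 3 (adjusted p = 0.058). Another probe set did not pass for Cnr1 (-0.26) and Kcnma1 (1.30). The mean of the probe sets did not pass for Adcyap1r1 (0.25, adjusted p = 0.727).

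Inflammatory genes showed rises in prostaglandin synthesis and cytokine signalling. Ptges, the inducible prostaglandin E synthase, had intensities of 312, 247 and 377 in control and 4723, 4842 and 4196 after 6 sessions, a difference of 3.83 ± 0.31 (adjusted p = 0.000162), and its second probe set rose by 1.23. Ptgs2, the inducible cyclooxygenase that feeds it, rose from 179.9, 156 and 111 to 1674, 611 and 608, a difference of 2.42 ± 0.54. In both genes all 3 stressed arrays lay above the controls. Il33, an alarmin cytokine that is not on the list, rose by 2.68 ± 0.50 and by 3.47 with its second probe set, Il4r, the interleukin 4 receptor, by 2.79 ± 0.31 and the signalling factor Stat3 by 1.56 ± 0.23. The 2 receptors of the chemokine CXCL12 went in opposite directions. Ackr3, which removes the chemokine, rose from 692, 512 and 525 to 7219.9, 12048 and 13084, a difference of 4.15 ± 0.25. Cxcr4, which signals, fell from 13703, 9635 and 9151 to 2268, 1333 and 1388, a difference of -2.71 ± 0.30, and its other 2 probe sets fell by 3.55 and 2.82 on the log2 scale. Neither gene's groups overlapped. Socs2, a suppressor of cytokine signalling, fell by 2.08 ± 0.42 on the log2 scale. Of 23 tested members of the list 8 rose (34.8%) and 3 fell (13%), against 9.03% and 13.9% of all genes, so the share of falls was near that of all genes. In all 4 readings 8 rose and 2 fell, and 7 members, among them Il6 and Tnf, were below the level filter. Of these genes, Stat3 did not pass with median centring. Omission of 1 array ended the call of Ptgs2 without control replicate 3 (adjusted p = 0.0525), and Socs2 without control replicate 3 (adjusted p = 0.0533). Other probe sets that did not pass were those of Stat3 (0.38).

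Glucocorticoid-induced genes were mixed. Fkbp5, a co-chaperone that restrains the glucocorticoid receptor, went from 11425, 11071 and 9163 to 60524, 37197 and 35893, a difference of 2.04 ± 0.27, and its second probe set rose by 1.48. Cdkn1c, a cell cycle inhibitor, rose by 2.63 ± 0.30 and Ddit4, an inhibitor of mTOR, by 2.29 ± 0.37. Glul, glutamine synthetase, fell with all 3 of its probe sets, from 20594, 15701 and 20164 to 8586, 8156 and 7359.5 for the brightest (difference -1.22 ± 0.19). Nr3c1, the glucocorticoid receptor itself, had 3896, 4375 and 2969 in control and 2585, 2279 and 2056 after 6 sessions, a difference of -0.68 ± 0.21 (adjusted p = 0.0427) that did not pass after quantile normalization (adjusted p = 0.136). Of 18 tested members 5 rose (27.8%) and 3 fell (16.7%), against 9.03% and 13.9% of all genes, so the share of falls was near that of all genes. In all 4 readings 4 rose and 2 fell. The list's median was -0.04 with all arrays and 0.48 without replicate 1. Median centring of the arrays ended the call of Ddit4, Glul and Nr3c1. Leaving out 1 array at a time ended the call of Nr3c1 without IMO_1x replicates 1, 2 and 3 and IMO_6x replicates 2 and 3 and control replicates 1, 2 and 3 (adjusted p = 0.0505 to 0.154).

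Several genes of cholesterol synthesis rose. In the list of cholesterol synthesis and uptake, 9 of 22 tested members rose (40.9%) and 1 fell (4.55%), against 9.03% and 13.9% of all genes. The list had 8 rises in all 4 readings and a median of 0.56 (0.74 after quantile normalization). Idi1, an isomerase of the isoprenoid steps, went from 4504, 4951 and 6465 to 26739.6, 73216 and 109632, a difference of 3.51 ± 0.46 (3.13 to 4.09 over the 4 readings). Replicate 1 was the lowest of the stressed arrays, and all 3 were above the controls. Cyp51, the lanosterol demethylase, rose from 8393, 8078 and 8132 to 59152, 51925 and 75957, a difference of 2.91 ± 0.30, and by 1.90 with its second probe set. Pmvk, a mevalonate kinase step, rose by 2.17 ± 0.24 and Acat2, an acetyl-CoA thiolase, by 2.07 ± 0.22. Elovl6, which lengthens fatty acids, rose by 2.74 ± 0.39 and 2.67 with its 2 probe sets. Insig2, which retains the sterol sensor in the endoplasmic reticulum, fell by 1.27 ± 0.27 on the log2 scale with all arrays, and did not pass after quantile normalization (adjusted p = 0.108).

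All 12 markers of the adrenal cortex passed the level filter, so cortex transcripts were measured in the dissected tissue. Scarb1, the HDL receptor that supplies cholesterol, rose from 20945, 12445 and 14736 to 56517, 107334 and 151029, a difference of 2.63 ± 0.43 with all arrays and 1.92 after quantile normalization. Mrap, the accessory protein of the ACTH receptor, rose by 1.92 ± 0.28 (1.30 after quantile normalization), and Star, which carries cholesterol into mitochondria, by 2.57 ± 0.49 (0.71). All 3 passed in the 4 readings. Hsd3b1 and Cyp21a1, enzymes of steroid synthesis, differed by 1.89 and 1.55 with all arrays but by 0.19 and -0.20 after quantile normalization, and did not pass there. Cyp11b1, which makes corticosterone, had 44340.0, 23128 and 35901 in control and 2012, 33603 and 49727 after 6 sessions, with replicate 1 at the lowest level and a difference of -1.15 ± 1.00 (adjusted p = 0.44). Nr0b1, the repressor DAX-1, fell by 2.39 ± 0.70 on the log2 scale, from 2542, 1907 and 3068 to 1859, 191 and 256, and Nr0b2, the repressor SHP, fell from 3546, 1308 and 2638 to 199, 89.4 and 125, a difference of -3.98 ± 0.51. Both passed in all 4 readings. Of 12 cortex markers 7 rose (58.3%) and 1 fell (8.33%) with all arrays, against 9.03% and 13.9% of all genes. In all 4 readings 3 rose and 1 fell, and the median of the 12 moved from 1.40 to -0.17 under quantile normalization. After median centring, Insig2 no longer passed. The call was also lost when 1 array was left out, for Cyp21a1 without IMO_1x replicate 2 and IMO_6x replicate 3 and control replicates 1, 2 and 3 (adjusted p = 0.0531 to 0.108), Hsd3b1 without control replicates 2 and 3 (adjusted p = 0.0534 to 0.0576), and Nr0b1 without IMO_1x replicates 1, 2 and 3 and IMO_6x replicates 2 and 3 and control replicates 1, 2 and 3 (adjusted p = 0.0566 to 0.123). Another probe set did not pass for Idi1 (1.82) and Scarb1 (2.04).

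Chaperones of the heat shock response, which fold proteins in the cytosol, rose in many of their members. Of 26 tested cytosolic heat shock chaperones 14 rose (53.8%) and 1 fell (3.85%), against 9.03% and 13.9% of all genes. The list had 9 rises in all 4 readings and medians of 1.09 with all arrays and 0.52 after quantile normalization. Hspa1a, the inducible HSP70, went from 3373, 2989.6 and 3346 to 20052, 39505 and 31447, a difference of 3.17 ± 0.34 (3.07 to 3.44 over the 4 readings). Hsph1, its exchange factor, rose by 2.16 ± 0.32 and the small heat shock protein Hspb8 by 2.31 ± 0.40. Their second probe sets, at 1.25 and 1.56, did not pass with all arrays. The co-chaperones Dnaja4 and Dnajb1 rose by 1.40 ± 0.18 and 1.39 ± 0.22. In the endoplasmic reticulum 5 of 23 chaperones rose (21.7%) and 0 fell, the 5 in all 4 readings. The list median was near 0 with all arrays, however, and -0.48 after quantile normalization, where 2 members fell. Hsp90b1 (GRP94), Dnajc3 and Hspa5 (BiP) rose by 1.69 ± 0.21, 1.61 ± 0.21 and 1.43 ± 0.27, and Hspa5 by 0.46 after quantile normalization. Of the Atf4 branch and amino acid response 3 of 22 rose (13.6%) and 1 fell (4.55%), all in all 4 readings. Against 9.03% and 13.9% of all genes, rises were of the same order and falls fewer. The rises were the amino acid transporter Slc7a5 (1.76 ± 0.35), Mthfd2, a folate enzyme of mitochondria (1.35 ± 0.26), and Ddit4 as above. Cth, cystathionine gamma-lyase, fell by 1.43 ± 0.24 on the log2 scale. Srxn1, which repairs oxidised peroxiredoxins, rose from 7686, 5359 and 6556 to 45106, 72277 and 56872 (difference 3.14 ± 0.26, second probe set 2.23). It was the 1 antioxidant gene of 24 that rose in all 4 readings, where 7.02% of all genes rose. Hsph1, Hspb8, Dnaja4, Dnajb1, Hspa5, Slc7a5, Mthfd2 and Cth lost their call under median centring. Other probe sets that did not pass were those of Dnaja4 (0.16) and Dnajb1 (-0.43). Averaged over the probe sets, the threshold was missed by Dnaja4 (0.78, adjusted p = 0.167) and Dnajb1 (0.48, adjusted p = 0.243).

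Clock genes changed one by one. Npas2, a partner of Bmal1, had intensities of 6802, 2905 and 3809 in control and 1795, 65.2 and 97.7 after 6 sessions. All 3 stressed arrays lay below the controls, replicates 2 and 3 by far more than replicate 1, and the difference was -4.05 ± 0.98 with all arrays and -5.46 without replicate 1. The repressors Cry1 and Per2 rose by 2.32 ± 0.39 and 1.69 ± 0.30. With Nfil3 these made 3 rises (15%) and 1 fall (5%) among 20 tested clock genes, all 4 in the 4 readings. Among all genes 9.03% rose and 13.9% fell with all arrays. The hour of dissection was not given in the sources used here.

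Growth factor and matrix genes changed in both directions. Bdnf, a neurotrophin, went from 346, 126 and 155 to 3485, 2394 and 2470.5, a difference of 3.74 ± 0.40, while its second probe set had a difference of 0.79 that did not pass. Ccn1 and Ccn2, matricellular proteins, rose by 2.62 ± 0.55 and 2.10 ± 0.33 and Vegfc, a lymphatic growth factor, by 1.47 ± 0.20. Vegfa, the main angiogenic factor, fell from 13616, 14928 and 12753 to 4781, 9236 and 9495, a difference of -0.87 ± 0.27. Of 18 tested members of the growth factor list 4 rose and 4 fell (22.2% and 22.2%, against 9.03% and 13.9% of all genes), 4 and 1 in all 4 readings. Of 54 collagens, laminins and integrins 4 rose and 4 fell, shares of 7.41% and 7.41% against 9.03% and 13.9% of all genes. The 4 rises passed in all 4 readings: Col7a1 by 1.70 ± 0.31 and the laminin chains Lama5, Lama4 and Lamb1 by 1.62, 1.28 and 1.01. Median centring of the arrays ended the call of Per2, Vegfc, Vegfa, Col7a1, Lama4 and Lamb1. Omission of 1 array ended the call of Lama4 without control replicates 1 and 3 (adjusted p = 0.0515 to 0.0589), Npas2 without IMO_6x replicate 3 and control replicates 1 and 3 (adjusted p = 0.0529 to 0.0692), and Vegfa without IMO_1x replicates 1, 2 and 3 and control replicates 1, 2 and 3 (adjusted p = 0.0578 to 0.127). A further probe set missed the threshold for Vegfa (-0.82) and Lama5 (1.00). A mean over probe sets ended the call of Vegfa (-0.85, adjusted p = 0.0929).

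Genes chosen by size rather than by list added others. By the rule, 15 genes whose probe sets all had the same sign in the 4 readings and 8 genes with a single probe set were taken each way. All had to pass in all 4 readings, with no overlap between the 3 IMO_6x and the 3 control arrays. The 15 also needed at least 2 probe sets past the threshold in the same direction, so their agreement was a condition of choice. Fam110c, whose product lies at the centrosome, rose from 259, 126 and 328 to 7472, 13294 and 15264 (difference 5.60 ± 0.38), and Myo16, an unconventional myosin, from 54.2, 33.2 and 41.0 to 1528, 4593 and 5239 (difference 5.84 ± 0.51). The control arrays of Myo16 were near the bottom of the scale. Iqub and the kinase Dyrk3 rose by 5.08 ± 0.33 and 4.44 ± 0.36. Among genes with several probe sets of 1 sign, Ezh2, the histone methyltransferase of Polycomb complexes, rose by 3.59 ± 0.30 and 2.70 with its 2 probe sets, from 621, 769.6 and 598 to 13207, 5839.6 and 6908 by the brighter one. Pak3, a kinase of neurons, rose by 2.71 ± 0.52 with its brightest and by 3.46 to 4.65 with its other probe sets. Slc6a17, a vesicular amino acid transporter, Tent5a, a poly(A) polymerase, and Eola2 rose by 2.98 ± 0.28, 3.60 ± 0.47 and 3.53 ± 0.18.

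Among the falls of genes with several probe sets of 1 sign, Tmem86a, a lysoplasmalogenase, went from 30252, 19899 and 28327 to 1356, 4962 and 5025, a difference of -2.98 ± 0.46, and -3.83 with its second probe set. Pex2, which is needed to build peroxisomes, fell from 6379, 8066 and 8710.5 to 1720.5, 2194 and 2037 (difference -1.95 ± 0.23), with -1.84 for its second probe set. No stressed array of either gene reached the control range, which was a condition of their choice. Oga, which removes the sugar mark O-GlcNAc from proteins, fell by 2.79 ± 0.48 on the log2 scale, Cyld, a deubiquitinase that restrains NF-kappa B, by 1.76 ± 0.28, Atpaf1, an assembly factor of ATP synthase, by 2.37 ± 0.21, Apc2, a relative of the tumour suppressor APC, by 2.62 ± 0.34 and Igtp, an interferon-induced GTPase, by 2.46 ± 0.41. Zng1a, Ints6l, R3hdm2, C1h19orf12 and Cxhxorf38 had differences of -2.84, -2.59, -1.85, -2.24 and -1.85. Among genes with 1 probe set, Met, the receptor of hepatocyte growth factor, fell from 3669.9, 978 and 2274 to 561, 72.3 and 30.7 (difference -3.93 ± 0.96), the kinase Sbk1 from 16458, 18039 and 19396 to 3779.9, 1862 and 1432 (difference -3.04 ± 0.33) and Slc9a3, a sodium-hydrogen exchanger, by 3.11 ± 0.86 on the log2 scale. Proser3 and Smtnl2 had differences of -3.61 and -3.18. After median centring, Tmem86a, Pex2, Oga, Igtp, Zng1a and Ints6l no longer passed. Leaving out 1 array at a time ended the call of Met without control replicates 1 and 3 (adjusted p = 0.0687 to 0.0735), R3hdm2 without control replicates 2 and 3 (adjusted p = 0.0534 to 0.063), and Slc9a3 without IMO_1x replicate 3 and IMO_6x replicates 2 and 3 and control replicates 1 and 3 (adjusted p = 0.0512 to 0.112). Another probe set did not pass for Slc6a17 (1.50) and Oga (-2.10).

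**Figure D4:**
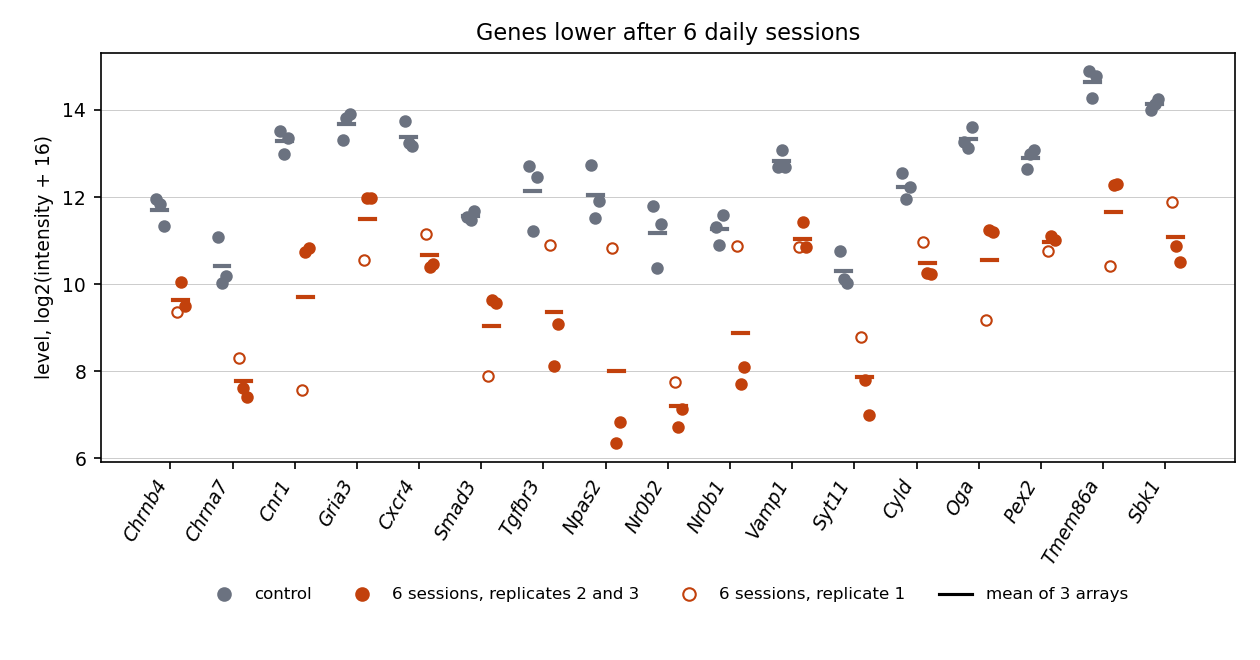
Levels as log2(intensity + 16) of 17 genes that fell, one point per array: control in grey, IMO_6x replicates 2 and 3 filled and replicate 1 open, with a line at the mean of 3 arrays. In each gene the 3 IMO_6x points lie below the 3 control points. Lack of overlap was a condition for genes chosen by size of change, and 41.5% of all genes did not overlap. Replicate 1 is the lowest point for several genes, such as Cnr1, Smad3, Oga and Tmem86a and the highest of its group for Npas2, Nr0b1 and Tgfbr3.

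Gene families of general cell functions gave counts that followed the scaling. Of 40 tested cytosolic ribosomal protein genes 26 rose (65%) and 0 fell with all arrays, against 9.03% and 13.9% of all genes, with a median of 1.16. After quantile normalization 1 rose, the median was -0.04, and the 1 gene that rose in all 4 readings was Rpl21 (1.60 ± 0.26, and 0.72 after quantile normalization). Rpl12, for example, had 45204, 40875 and 43572 in control and 141697, 105520.0 and 110831 after 6 sessions, a difference of 1.45 ± 0.25 that was 0.20 after quantile normalization (adjusted p = 0.39). The respiratory chain and ATP synthase had 25 of 77 up (32.5%) and 0 down with all arrays and 5 up and 3 down after quantile normalization. The glycolysis list had 5 up (25%) and 1 down (5%) of 20, then 1 up and 3 down. In Pgam1, a glycolytic enzyme, the difference turned from 1.22 to -0.22, and in the peroxide enzymes Gpx1 and Prdx2 from 1.32 and 0.98 to -0.01 and -0.19. Ndufa5, a subunit of complex I, kept a rise in all 4 readings, from 4086, 3956 and 5206 to 22440.5, 45963 and 63894 (3.20 ± 0.36, and 2.98 after quantile normalization). Proteasome subunits had 8 up (22.2%) and 1 down (2.78%) of 36 with all arrays and 2 up and 1 down in all 4 readings. Pgam1 and Prdx2 lost their call under median centring. The call was also lost when 1 array was left out, for Gpx1 without control replicates 2 and 3 (adjusted p = 0.062 to 0.0666), Pgam1 without IMO_1x replicate 2 and IMO_6x replicate 3 and control replicates 1, 2 and 3 (adjusted p = 0.0676 to 0.123), and Prdx2 without IMO_1x replicate 2 and IMO_6x replicates 2 and 3 and control replicates 1, 2 and 3 (adjusted p = 0.0581 to 0.0949).

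Zinc finger protein genes were the list with the largest number of falls, with all arrays, though shorter lists had larger shares, such as 22.2% of the growth factor list. Of 200 tested members 38 fell (19%) and 8 rose (4%), against 13.9% and 9.03% of all genes. In all 4 readings 13 fell and 7 rose, where the shares of all genes were 6.34% and 7.02%. Their median difference was -0.50 with all arrays, against -0.23 for all genes, and -0.37, -0.59 and -0.21 in the quantile, replicate-left-out and combined readings. With median centring it was -0.33, and 0.02 without replicate 1. Zfp958l1 fell from 5304, 5294 and 6356 to 843, 862 and 865, a difference of -2.69 ± 0.21. Zfp512b and Zfp518a fell by 2.14 ± 0.24 and 1.85 ± 0.28 on the log2 scale. Rab GTPases, which steer vesicle traffic, had 8 falls and 2 rises among 52 tested, 6 and 2 in all 4 readings. The shares up and down, 3.85% and 15.4%, compare with 9.03% and 13.9% of all genes. Rab33a fell from 8699.6, 8113 and 8909.8 to 3106, 3348 and 2708 (-1.49 ± 0.19) and Rab11b, of recycling endosomes, by 1.35 ± 0.19 on the log2 scale, and Rab8b rose by 2.38 ± 0.30 while its other 2 probe sets, at -0.90 and -0.15, did not pass. Of 66 enzymes that attach or remove ubiquitin 9 rose and 9 fell, 9 and 4 in all 4 readings (13.6% and 13.6% with all arrays). Usp13 rose from 1896, 2095 and 1986 to 10986, 11058 and 9351 (2.38 ± 0.20, second probe set 1.11), and Usp2, whose transcript follows the clock, by 2.42 ± 0.38. Median centring of the arrays ended the call of Rab33a and Rab11b. A further probe set missed the threshold for Usp2 (1.46). A mean over probe sets ended the call of Rab8b (0.44, adjusted p = 0.214).

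**Figure D5:**
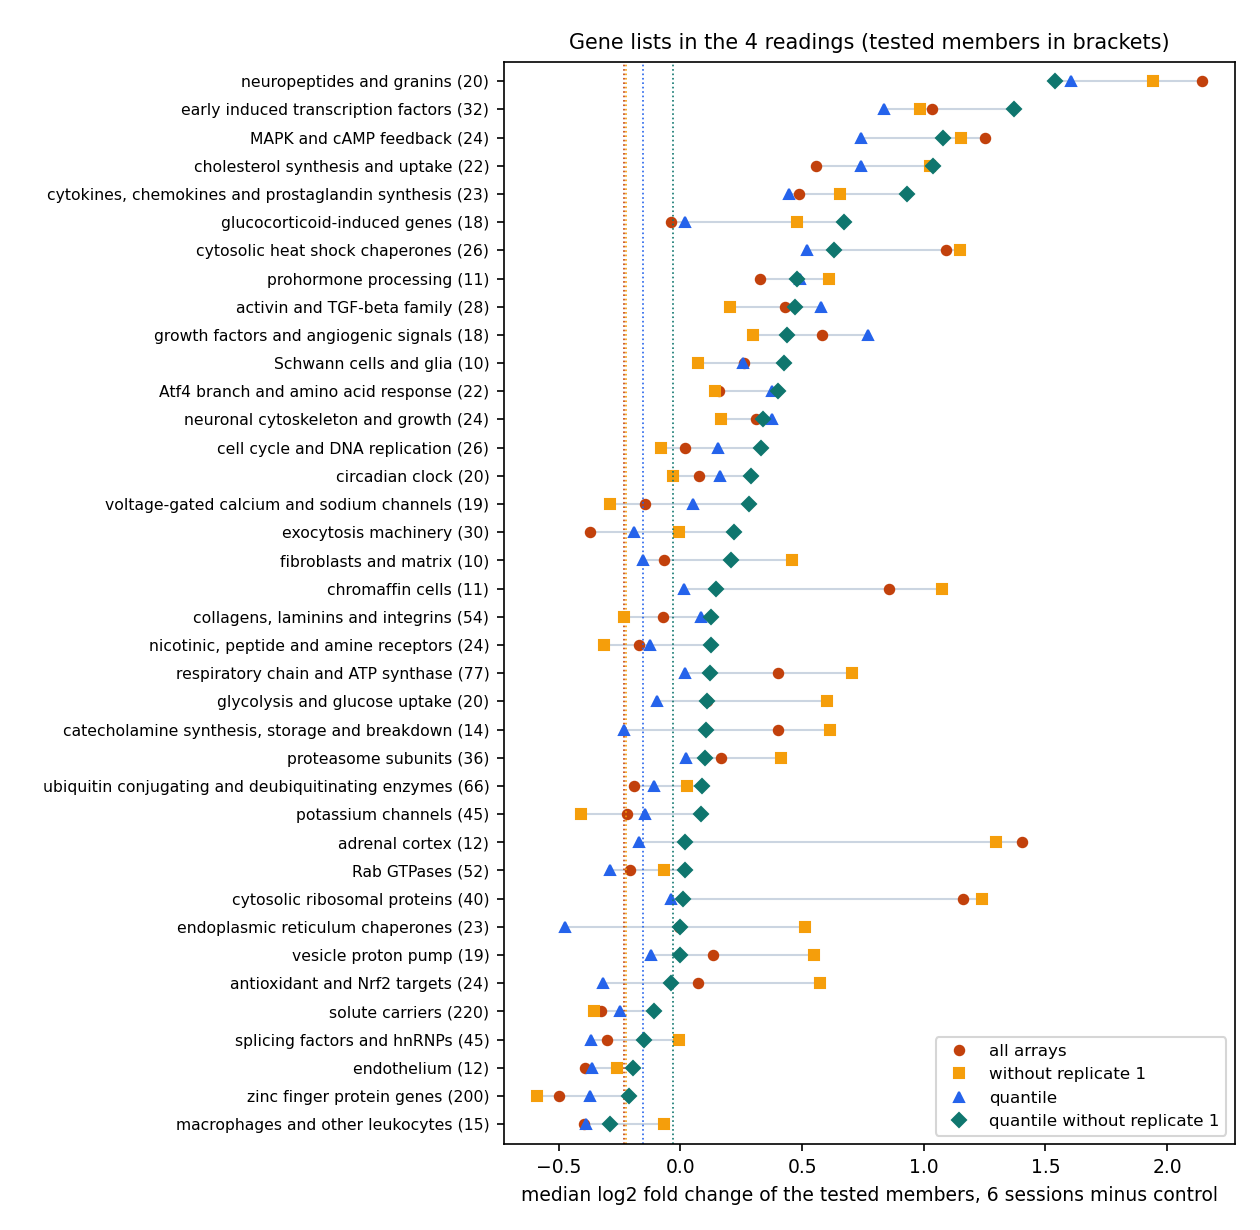
Median log2 fold change, IMO_6x minus control, of the tested members of each gene list with 10 or more of them (number in brackets) in the 4 readings, with the median of all genes in each reading as a dotted line. Neuropeptides stay between 1.54 and 2.14 in the 4 readings, while ribosomal proteins move from 1.16 with all arrays to -0.04 after quantile normalization and cortex markers from 1.40 to -0.17.

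Some genes had probe sets past the threshold in opposite directions, 50 in all, so that no direction can be given for the gene. Usp48 fell by 1.62 ± 0.20 on the log2 scale with its brightest probe set and rose by 0.80 with the other, both in all 4 readings. Usp7 rose by 1.29 ± 0.30 with its brightest and fell by 0.72 with another. Gja1, which encodes a connexin of gap junctions, was the 1 gene called in opposite directions in 2 readings. Its brightest probe set had 81964, 63374 and 65806 in control and 219218, 128901 and 169501 after 6 sessions, a difference of 1.27 ± 0.36 with all arrays (adjusted p = 0.0309) and -0.30 in the combined reading (adjusted p = 0.0356). Its second probe set fell by 3.82 on the log2 scale with all arrays, and did so in all 4 readings. After median centring, Usp48 no longer passed. Omission of 1 array ended the call of Gja1 without IMO_1x replicate 2 and IMO_6x replicate 3 and control replicates 1, 2 and 3 (adjusted p = 0.0613 to 0.114), and Usp7 without control replicate 3 (adjusted p = 0.0622). The mean of the probe sets did not pass for Usp48 (-0.41, adjusted p = 0.0897), Usp7 (0.00, adjusted p = 0.99) and Gja1 (-1.28, adjusted p = 0.0897).

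Markers of other cell types are given for the makeup of the tissue. The summed level of 12 cortex markers, on the log2 scale, was 18.75 to 19.28 in control and 20.31 to 21.07 after 6 sessions, and that of 11 chromaffin markers 18.43 to 19.02 in control and 20.08 to 21.22 after 6 sessions. Both sums were higher in all stressed arrays, and both lists had medians near 0 after quantile normalization (-0.17 and 0.01). Their part in the other results was not tested. For 12 endothelial markers the sum was 16.17 to 16.34 in control and 15.80 to 16.09 after 6 sessions. Among them 0 rose and 1 fell (8.33%, against 13.9% of all genes): Kdr, a receptor of VEGF, by 0.79 ± 0.21 on the log2 scale. For 15 leukocyte markers the sum was 16.92 to 17.18 in control and 16.51 to 17.27 after 6 sessions. Among these 0 rose and 3 fell (20%), none of them in all 4 readings. Of 10 glial markers 0 rose and 1 fell (10%), with sums of 15.19 to 15.68 in control and 15.34 to 15.70 after 6 sessions. Of 10 fibroblast and matrix markers 2 rose (20%, against 9.03% of all genes) and 0 fell, 1 rise in all 4 readings. Their sums were 16.68 to 17.14 in control and 17.35 to 18.10 after 6 sessions. The list median was -0.07 with all arrays and -0.16 after quantile normalization. Pdgfra, a receptor of fibroblasts, rose by 1.06 ± 0.27, while Col1a1 and Fn1 differed by -0.54 and -0.50 and did not pass. Of 3 erythrocyte markers 0 passed, with sums of 14.39 to 15.08 in control and 12.91 to 14.85 after 6 sessions, and of 2 tested adipocyte markers 0 passed, with sums of 14.32 to 14.50 in control and 13.50 to 15.05 after 6 sessions. No tested marker was at 0 on any array, and 5 of 7 adipocyte markers on the array, among them Adipoq and Plin1, were below the level filter. Kdr and Pdgfra lost their call under median centring. Leaving out 1 array at a time ended the call of Kdr without IMO_6x replicate 2 and control replicates 1 and 3 (adjusted p = 0.0501 to 0.11), and Pdgfra without IMO_6x replicate 2 and control replicates 1 and 3 (adjusted p = 0.052 to 0.0918).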

How the data were processed

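RNA of rat adrenal medulla was hybridised to 9 Affymetrix arrays, 3 per group. The deposited values are linear probe set intensities; the mean without the lowest and highest 2% of values was nearly equal on all 9 arrays, and the summarisation method is not given in the sources used here. Probe sets were named through the platform annotation, and 20826 of 31042 had 1 gene symbol. The dimmest 30% of all probe sets, by mean level over all 9 arrays, were left out, which left 15717 for 11288 genes. The stressed arrays entered that mean, so a gene dim in control could be tested because it was high after stress. A gene dim in both groups could not, and this favours rises among dim genes. Values were taken as log2(intensity + 16). All 9 arrays entered 1 limma 3.58.1 fit in R 4.3.3 (lmFit, eBayes with trend, 6 residual degrees of freedom), with Benjamini-Hochberg adjustment over all tested probe sets. The number of arrays limits the precision. The fit was tested on simulated data with independent normal noise of the control spread. These data held no outlying array and no quality difference between groups, so that test does not cover either.

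Genes were named by rule. By size, 15 rises and 15 falls were taken among genes with 2 or more probe sets of 1 sign. A further 8 each way were taken among genes with 1 probe set. Both were ranked by their smallest change over the 4 readings, the largest first. These genes had to pass in all 4 readings, with no overlap between the IMO_6x and control arrays. Those with 2 or more probe sets also needed at least 2 of them past the threshold in the same direction. Also named were up to 4 genes per list by adjusted p, list members with opposed probe sets, and Th, Dbh, Pnmt, Chga, Npy, Gal and Nr3c1. Others, such as Fst, Inhbb, Scg2, Slc18a2, Snap25, Hspb8 and Gja1, were chosen after their values were seen. The members and lists were chosen with earlier results of these data known. Alternatives covered scaling, filter, pseudocount, array weights, probe set choice, the replicate number as a block and each array left out.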

Additional observations from a re-analysis of the deposited data

Results flagged for a closer look

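Among array controls, which lie outside the gene comparison, the actin ratio and the spiked-in transcripts were above the control arrays in every IMO_6x array, while the hexokinase ratio was not. The actin 3′/5′ ratio was 231 in replicate 1, 6.11 in replicate 2 and 8.87 in replicate 3. The spiked-in transcripts had mean log2 levels of 17.52, 14.04 and 14.41 in the same order. Probe sets without a gene symbol also changed: of 5653 tested, 185 were higher and 508 lower after 6 sessions at an adjusted p under 0.05 in the limma fit.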

How the results depend on the processing

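Counts are of genes higher and lower after 6 sessions, then of those with every probe set past the threshold (1019 and 1566, then 52 and 134, as reported). They were 1956 and 3282, then 127 and 423, without IMO_6x replicate 1. After quantile normalization 864 fell, 52 with every probe set, and with both changes 1761 rose, 165 with every probe set. Median centring gave 448 and 213, then 20 and 6, and without replicate 1 it gave 3850 and 920, then 380 and 81. A fit to only the 6 arrays gave 603 and 734, then 22 and 35. Array weights, whose estimation reported a convergence warning, gave 2473 and 4222, then 222 and 627. An adjusted p threshold of 0.01 gave 454 and 552, then 16 and 26. Leaving out 1 array at a time gave 529 to 1956 rises and 628 to 3282 falls, then 23 to 127 and 32 to 423. With the replicate number as a block, 1010 rose and 1614 fell, then 54 and 146; deviations of same-numbered arrays correlated at 0.14, 0.04 and 0.15, so the numbers were not taken as pairs. Filters and pseudocounts moved no count by over 1.5 times. Of 203 named genes past the threshold, 85 passed in every setting. Among values past the threshold with all arrays or in the setting named, directions turned after quantile normalization, with all arrays and without replicate 1, in Cyp21a1 (-0.20 and -0.17), Gja1 (-0.40 and -0.30), Gpx1 (-0.0076 and -0.071), Pgam1 (-0.22 and -0.19) and Prdx2 (-0.19 and -0.12). With median centring without replicate 1 they turned in Chrna3 (0.79), Cyp11b1 (0.90), S100b (0.021), Scg2 (1.48), Snap25 (1.09) and Vegfa (0.054). Scg2, which ranged from -0.45 to 0.87 with 1 array left out, also turned without replicate 1 and with array weights (0.97), and Gja1 with the mean of its probe sets (-1.28). Values past the threshold in neither setting could turn too: without replicate 1 Chrna3 was 0.19, Snap25 0.49, Cyp11b1 0.30 and Slc18a1 0.04. The cause was not tested.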
